A study of Mus musculus with 6 samples.

Results

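The data cover 10 genes of the amino acid response in mouse pituitary tumour cells depleted of Dnmt1: the transcription factor gene Atf4 and 9 genes described as its targets, Asns, Chac1, Trib3, Psat1, Phgdh, Cth, Ddit3, Sesn2 and Vldlr. The members are all probe sets of the array that the platform annotation assigns to one of these symbols alone, which gave 25 of the 45101 probe sets and 10 of the 18193 genes the annotation names in this way. Every gene had at least 1 probe set, and 21 of the 25 were bright enough to be among the 27022 probe sets tested. Every array held RNA of AtT-20, a corticotroph-like tumour line of mouse pituitary whose cells secrete adrenocorticotropic hormone. In the siDNMT1 group they received 20 nM of an siRNA against Dnmt1, the maintenance DNA methyltransferase, repeatedly until RNA was taken on day 8. In the siNT group they received 20 nM of a non-targeting siRNA on the same schedule, so both groups carried the load of repeated transfection. Each group had 3 arrays, 1 from each of 3 independent repeats, and all cells were of 1 line. No array of untransfected cells is used here.

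Cells that run short of an amino acid, or whose endoplasmic reticulum is overloaded, phosphorylate the translation factor eIF2. General translation then slows while the Atf4 mRNA is translated better, so much of the control of ATF4 acts on its protein and not on its transcript. ATF4 pairs with C/EBP proteins on composite sites and raises the transcription of genes for amino acid synthesis, amino acid uptake, tRNA charging and glutathione turnover, and of the regulators CHOP, encoded by Ddit3, and TRIB3. In secretory cells such as corticotrophs the response sits next to the unfolded protein response, which shares the kinase PERK with it.

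The composite C/EBP-ATF site is shown first, since it is the sequence through which ATF4 is described to act on several of the 10 genes. RefSeq promoter windows of assembly GRCm38.p6, from 250 bases before to 50 bases after a transcript start, were available for 9 of the 10 genes in 11 windows, with none for Cth. They were searched on both strands for the core TGATGNAA, which reads in reverse complement where it lies on the other strand, and for TGACGTNA of the cAMP response element type. The 2 cores are different 8-letter words, so 1 place cannot match both. The first core was in 1 window each of Asns, Chac1, Trib3 and Vldlr, 4 of 11 windows, and in 3.97% of all 32851 windows. The second was in none of the 11 and in 2.93% of all. The genes were chosen as described ATF4 targets, so this count is a description. In Asns the match lies on the strand of the gene and begins at base -23 relative to the start (window chr6:7693214-7693243, minus strand). In the other 3 it lies on the opposite strand. In Chac1 it begins at base -193 (chr2:119351038-119351067, plus strand). In Vldlr it begins at base -200 from the downstream of its 2 listed starts (chr19:27216809-27216838, plus strand). In Trib3 it begins 14 bases past the start (chr2:152344033-152344052, minus strand). The windows are printed 5′ to 3′ on the strand of the gene, with the match in capitals.
Asns: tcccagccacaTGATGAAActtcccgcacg
Chac1: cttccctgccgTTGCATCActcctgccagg
Vldlr: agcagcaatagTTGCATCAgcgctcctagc
Trib3: tcaggtTTACATCAgccggg

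Signals are given as scaled signal, the deposited probe set intensity after each array was brought to the same median, and differences as siDNMT1 minus siNT on the log2(scaled signal + pseudocount) scale with a pseudocount of 5.29. The level of a gene is compared between arrays on 1 probe set. Unlike probe sets are only summed for marker lists, ordered by signal or grouped by range of signal. The targeted gene checked the labels: Dnmt1 signal in siDNMT1 cells was 39.6%, 20.2% and 48.6% of that in siNT cells in repeats 1, 2 and 3, and Dnmt1 fell by 1.54 on the log2 scale in the limma fit with the repeat as a block (adjusted p = 0.0211). Without the block its limma adjusted p was 0.151. All 6 corticotroph markers were above the filter, with summed signals of 8639 to 13604 on siDNMT1 arrays and 10043 to 13657 on siNT arrays. Most of each sum was Pomc, at 10469.5 of the 13604. Also above the filter were 4 of 5 markers of other pituitary lineages, 5 of 6 of fibroblasts and 3 of 5 of macrophages, so passing it does not mark a cell type. The summed signal of 5 markers of other pituitary lineages was 109 to 171 on siDNMT1 arrays and 111 to 212 on siNT arrays. Fibroblast markers summed to 160.4 to 199 on siDNMT1 arrays and 129 to 174 on siNT arrays, and macrophage markers to 211 to 273 on siDNMT1 arrays and 194 to 263 on siNT arrays. The ranges overlapped in each list. Of 5 tested fibroblast markers 4 were higher (median 0.29) and none was called. Among them Pdgfra, a growth factor receptor gene singled out after its values were seen, averaged 34.3 ± 11.2 in siDNMT1 cells and 13.1 ± 11.9 in siNT cells (SD, n = 3 each). It was higher in 3 of 3 repeats, at 1.26 (SE 0.47, paired limma adjusted p = 0.435), and its part in the results was not tested. Median deposited signals were 20.3, 36.3 and 22.8 on the siDNMT1 arrays of repeats 1 to 3, and 19.8, 33.2 and 24.0 on the siNT arrays, so repeat 2 was the brightest. The excess of repeat 2 over the other repeats was smaller among bright probe sets, with a median log2 of 0.87 at mean deposited signals of 200 to 500 and of 0.38 at 4000 to 6000, a range that holds the brightest probe sets of Asns and Phgdh. In bulk RNA, fewer cells of a kind and less RNA per cell cannot be told apart.

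No gene of the amino acid response passed the test in either direction after knockdown of Dnmt1. Of the 21 tested probe sets of the 10 genes, 5 had higher and 16 had lower values in siDNMT1 cells, with a median difference of -0.16. Over all 27022 probe sets 59.2% were lower, with a median of -0.056. Lower values that were alike in the 3 repeats were found in Vldlr, the receptor for very low density lipoprotein, at -0.71 and -0.70 on its 2 brighter probe sets, and in Cth, the enzyme that releases cysteine from cystathionine, at -0.44. Chac1, which degrades glutathione, differed by -0.31. Atf4 itself, Trib3 and the brighter Ddit3 probe set lay within 0.10 of 0 on each of their tested probe sets.

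The fit was limma on all tested probe sets with the Benjamini-Hochberg adjustment and a threshold of 0.05. The 95% intervals given below are for single probe sets and are not adjusted for the 27022 tests. An interval that leaves out 0 is therefore not a call. Without the repeat as a block 0 of the 21 member probe sets were called (background 0% of 27022), with an adjusted p of 0.9997 for each. With the block, called the paired fit below, 0 were called again (background 0.0851%), with adjusted p from 0.168 for the brightest Vldlr probe set to 0.991 for the brightest Phgdh probe set. At an unadjusted p under 0.05, 3 probe sets were lower without the block (background 2.47%) and 6 in the paired fit (background 5.39%), and none was higher in either. The 6 belonged to Vldlr, Cth, Chac1 and Phgdh. Across the array the paired share was 11.5% at mean deposited signals of 1000 to 2000, the range of Cth and Chac1. It was 15.2% at 2000 to 3000, the range of the 2 Phgdh probe sets. In the ranges of the 2 Vldlr probe sets, 200 to 500 and 50 to 100, it was 8.47% and 4.91%. On 3 probe sets, 2 of Vldlr and that of Cth, every siDNMT1 array lay below every siNT array (background 5.78%). In the signal range of Cth that background was 9.51%, and in those of the 2 Vldlr probe sets 7.29% and 5.80%. Lower values in 3 of 3 repeats were found for 12 of the 21 (background 19.2%), from 7 genes: Asns, Chac1, Psat1, Phgdh, Cth, Sesn2 and Vldlr. That share was larger among brighter probe sets across the array, as given with the values by brightness.

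**Figure D1:**
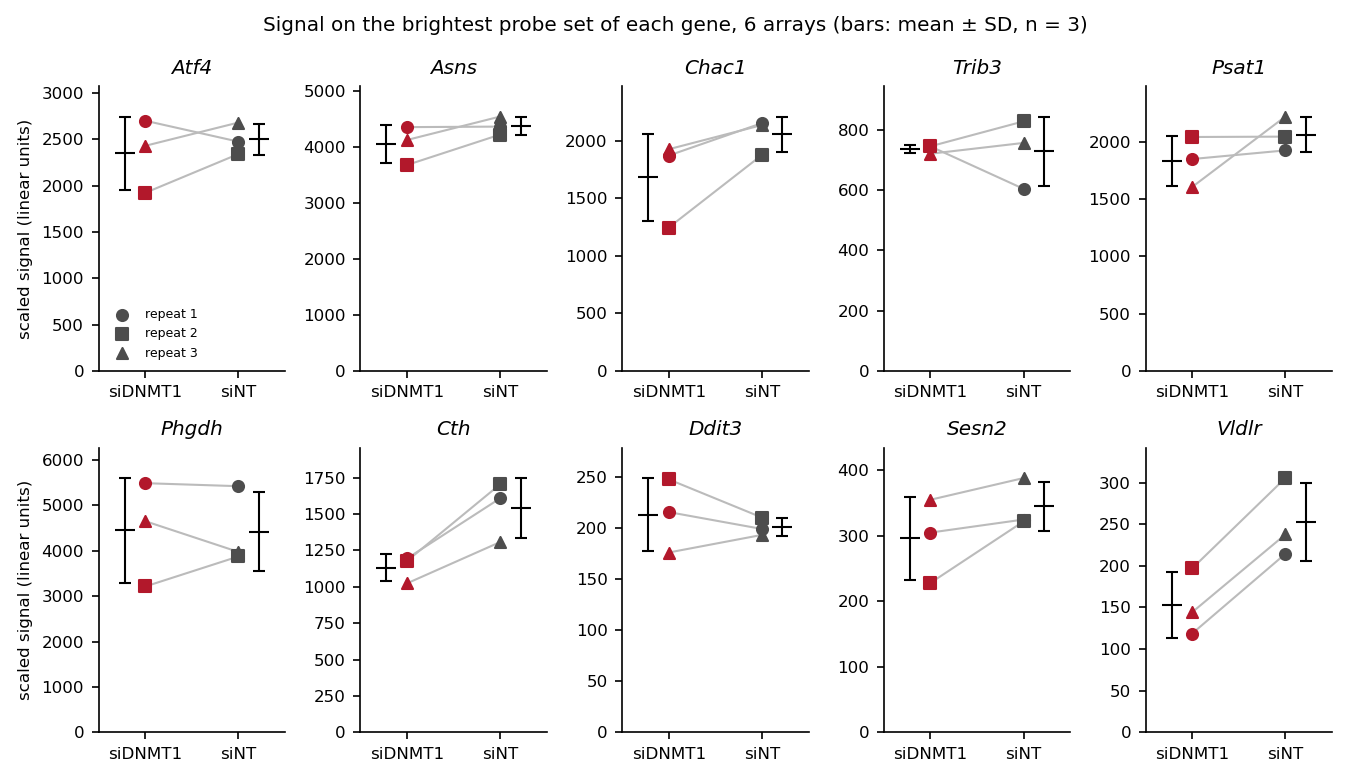
Scaled signal (vertical axes, linear, from 0) on the brightest probe set of each of the 10 genes, with siDNMT1 arrays in red at the left of each panel and siNT arrays in grey at the right; marker shapes and joining lines identify the 3 repeats, and the bars are mean ± SD (n = 3 arrays). The siDNMT1 points lie below all siNT points for Cth and Vldlr, and the groups overlap for the other 8 genes.

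Among the regulators, Atf4 was represented by 2 tested probe sets that differed in sign. On the brighter one the signals were 2703, 1924 and 2432 on the siDNMT1 arrays of repeats 1, 2 and 3, against 2476, 2343 and 2683 on the siNT arrays. The siDNMT1 array of repeat 1 was the highest of all 6 and that of repeat 2 the lowest, so the groups overlapped. The difference was -0.10 (SE 0.15, 95% interval -0.43 to 0.23), and on the other probe set it was 0.082 (SE 0.16). ATF4 protein was not measured. The 3rd Atf4 probe set was below the filter, with signals between 3.99 and 8.13, near the pseudocount, and was not tested.

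Ddit3 encodes CHOP, a C/EBP family factor induced by ATF4 and linked to cell death under lasting stress. On its brighter probe set the signals were 216, 248 and 176 on the siDNMT1 arrays of repeats 1, 2 and 3, against 199, 211 and 194 on the siNT arrays. The difference was 0.070 (SE 0.18, 95% interval -0.33 to 0.47), with the siDNMT1 array higher in repeats 1 and 2 and lower in repeat 3. The dimmer Ddit3 probe set had a difference of 0.66 (SE 0.65) that rested on 1 pair: it was 2.34, 0.091 and -0.44 in repeats 1, 2 and 3, from signals of 67.3, 30.9 and 5.16 on siDNMT1 arrays against 9.07, 28.7 and 8.89 on siNT arrays. Repeat 1 alone carried the high value, and the brighter probe set did not share it.

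Trib3 encodes a pseudokinase that binds ATF4 and CHOP and dampens the response. Its brighter probe set read 745, 745 and 720.3 on the siDNMT1 arrays of repeats 1, 2 and 3, against 604, 828 and 756 on the siNT arrays, a difference of 0.027 (SE 0.16, 95% interval -0.32 to 0.38). By repeat it was 0.30, -0.15 and -0.070. The 2nd probe set was at -0.049 (SE 0.21) with repeat values of 0.69, -0.36 and -0.47. On both, siDNMT1 cells were above siNT cells in repeat 1 and below them in repeats 2 and 3. Sesn2, encoding sestrin 2, which restrains the growth kinase complex mTORC1 when leucine is short, was lower in 3 of 3 repeats on both of its probe sets. On the brighter one the signals were 305, 228 and 355 on the siDNMT1 arrays of repeats 1, 2 and 3, against 324, 322 and 388 on the siNT arrays. The differences were -0.23 (SE 0.19) and -0.16 (SE 0.19), with -0.49 and -0.27 in repeat 2, the repeat in which both were furthest from 0. The groups overlapped on both probe sets. Without the siDNMT1 array of repeat 2 the unpaired difference on the brighter one was -0.062, and without that of repeat 3 it was -0.38. Within repeats 1 and 3 the brighter one was at -0.090 and -0.13.

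Of the enzymes of amino acid synthesis, Asns, which makes asparagine from aspartate and glutamine and is a standard readout of the response, differed by -0.11 (SE 0.12, 95% interval -0.38 to 0.16) and -0.17 (SE 0.14). Its brighter probe set read 4353, 3678 and 4124 on the siDNMT1 arrays of repeats 1, 2 and 3, against 4363, 4221 and 4543 on the siNT arrays. Repeat 1 showed a difference of -0.0032 there, and without the siDNMT1 array of repeat 2 the unpaired difference was -0.046. With both arrays of repeat 2 left out, the difference in the paired fit was -0.071. Psat1, the transaminase of serine synthesis, differed by -0.18 (SE 0.14) and -0.14 (SE 0.16). Its brighter probe set read 1847, 2039 and 1604 on the siDNMT1 arrays of repeats 1, 2 and 3, against 1923, 2043 and 2218 on the siNT arrays. The difference sat in repeat 3, at -0.47 and -0.43 on its 2 probe sets, while repeats 1 and 2 lay between -0.058 and 0.013. Without the siDNMT1 array of repeat 3 the unpaired difference on the brighter one was -0.084. With both arrays of repeat 3 left out, it was -0.030 in the paired fit.

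Phgdh encodes the dehydrogenase that opens serine synthesis from glycolysis, and its 4 probe sets did not show 1 pattern. The brightest read 5486, 3212 and 4649 on the siDNMT1 arrays of repeats 1, 2 and 3, against 5419, 3873 and 3972 on the siNT arrays, a difference of -0.0084 (SE 0.20, 95% interval -0.45 to 0.43). The other 3 differed by -0.34, -0.34 and -0.23 (SE 0.17, 0.17 and 0.16) and were lower in 3 of 3 repeats. The clearest of them by paired SE read 2514, 1834 and 1825 on the siDNMT1 arrays of repeats 1, 2 and 3, against 3019, 2559 and 2211 on the siNT arrays, and was at -0.26, -0.48 and -0.28 in the repeats (paired SE 0.095, paired interval -0.55 to -0.13, paired limma adjusted p = 0.361). A further 2 probe sets are annotated to Phgdh together with the predicted genes Gm8096 or Gm6756 and are not members. They differed by -0.34 and -0.18 and were also lower in 3 of 3 repeats. All 4 member probe sets of Phgdh carry the array maker's _x_at suffix, which marks probes that may also match other transcripts, so the Phgdh values are uncertain. The brightest probe sets of Vldlr and Asns and the dimmer tested ones of Atf4 and Trib3 carry the same suffix and the same limit.

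The 2 enzymes of cysteine and glutathione turnover were lower in 3 of 3 repeats. Cth, cystathionine gamma-lyase, is the last step of the route from methionine to cysteine and also makes hydrogen sulfide. It averaged 1132 ± 94.1 in siDNMT1 cells and 1540.1 ± 207 in siNT cells (SD, n = 3 each). The signals were 1195, 1178 and 1024 on the siDNMT1 arrays of repeats 1, 2 and 3, against 1608, 1704 and 1308 on the siNT arrays, so the highest siDNMT1 array was below the lowest siNT array. The siDNMT1 arrays held 74.3%, 69.1% and 78.3% of the signal of their siNT partners. The difference was -0.44 (SE 0.15, 95% interval -0.77 to -0.10, paired SE 0.10, paired interval -0.66 to -0.21), with a limma adjusted p of 0.9997 without the block and 0.218 with it. Cth has 1 probe set, so no other reading of the gene was to hand.

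Chac1 encodes a gamma-glutamylcyclotransferase that breaks down glutathione and is among the most responsive ATF4 target genes. Its single probe set read 1871, 1246 and 1926 on the siDNMT1 arrays of repeats 1, 2 and 3, against 2153, 1876 and 2136 on the siNT arrays. Chac1 averaged 1681 ± 378 in siDNMT1 cells and 2055 ± 155 in siNT cells (SD, n = 3 each). The groups overlapped because the siNT array of repeat 2 was below 1 siDNMT1 array, that of repeat 3. Within the repeats the difference was -0.20, -0.59 and -0.15, largest in repeat 2, with a mean of -0.31 (SE 0.18, 95% interval -0.70 to 0.076). In the paired fit the interval was -0.55 to -0.072 (paired SE 0.11), with a limma adjusted p of 0.539. Without the siDNMT1 array of repeat 2 the unpaired difference was -0.11. With both arrays of repeat 2 left out, the difference in the paired fit was -0.18.

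Vldlr, which takes up triglyceride-rich lipoproteins and is described as an ATF4 target under endoplasmic reticulum stress, had the largest difference of the 10 genes on their brightest probe sets. That probe set averaged 153 ± 39.9 in siDNMT1 cells and 252 ± 47.3 in siNT cells (SD, n = 3 each), a difference of -0.71 (SE 0.22, 95% interval -1.20 to -0.23, paired SE 0.15, paired interval -1.04 to -0.39). The signals were 119, 197 and 144 on the siDNMT1 arrays of repeats 1, 2 and 3, against 214, 305 and 238 on the siNT arrays. The siDNMT1 arrays held 55.4%, 64.5% and 60.7% of the signal of their partners, and the highest of them was below the lowest siNT array. The 2nd probe set gave 51.5, 65.3 and 51.2 on the siDNMT1 arrays of repeats 1, 2 and 3, against 82.3, 112 and 88.9 on the siNT arrays. Here the siDNMT1 arrays held 62.5%, 58.1% and 57.6%, a difference of -0.70 (SE 0.22, paired SE 0.19), again with no overlap. The paired limma adjusted p was 0.168 and 0.340, so neither passed. The 3rd tested probe set, much closer to the pseudocount at 23.6 ± 14.1 in siDNMT1 cells and 19.6 ± 6.13 in siNT cells (SD, n = 3 each), differed by 0.13 (SE 0.44) and was higher in repeat 1 only. The other 3 Vldlr probe sets were below the filter, and their untested differences of -0.21, -0.69 and 0.14 differed in sign between repeats. With the mean of its tested probe sets standing for the gene, the difference of Vldlr was -0.43.

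**Figure D2:**
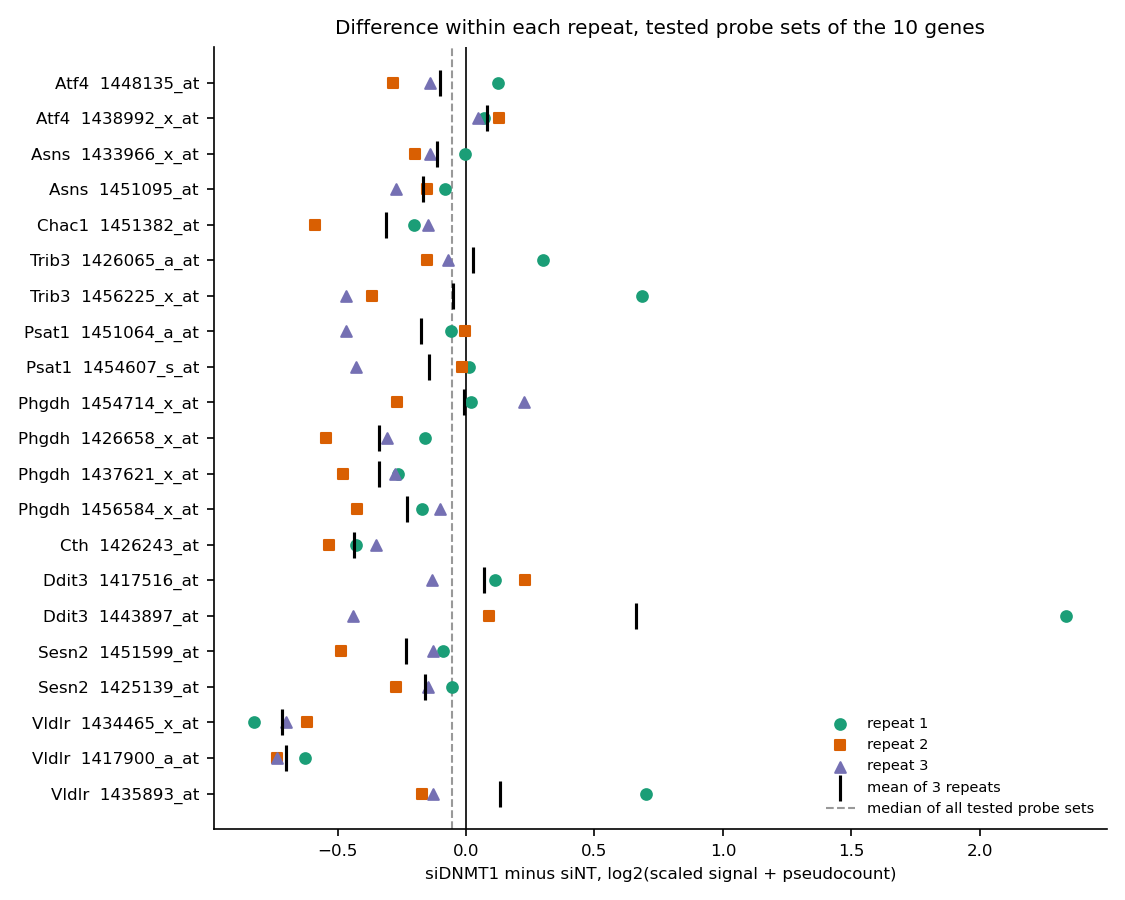
Difference between siDNMT1 and siNT cells within each repeat (horizontal axis, log2 scale) for the 21 tested probe sets of the 10 genes, 1 row per probe set; marker shapes stand for the 3 repeats, black bars for their mean and the dashed line for the median of all tested probe sets, -0.056. The 3 repeats lie close together for Cth and for the 2 brighter Vldlr probe sets, while Trib3 and the dimmer Ddit3 probe set are above 0 in repeat 1 and spread widely.

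The repeats differed in how far the genes were shifted. The median difference over the 21 probe sets was -0.055 in repeat 1, -0.27 in repeat 2 and -0.15 in repeat 3. Over all 27022 probe sets the medians by repeat were 0.020, -0.11 and -0.067. Without the siDNMT1 array of repeat 2 the median of the unpaired differences was -0.062 over the 21 and -0.064 over all probe sets. The medians were close in that setting, which keeps the siNT array of repeat 2. With both arrays of repeat 2 left out, the medians in the paired fit were -0.11 and -0.025. Without the siDNMT1 array of repeat 1 the unpaired medians were -0.21 and -0.044, and without that of repeat 3 -0.13 and -0.043. The lowest of the 6 scaled signals was on the siDNMT1 array of repeat 2 for 8 of the 21, a count whose share over the whole array was not computed. On the deposited signals, before any scaling, 10 of the 21 were lower in 3 of 3 repeats (15.9% of all tested probe sets). Scaling moved the balance of the members and that of the whole array together: 16 of 21 were lower with median scaling (59.2% of all probe sets), 14 with trimmed mean scaling (49.7%), 14 with quantile normalisation (51.1%) and 15 with no scaling (54.8%). The 2 brighter Vldlr probe sets, Cth, Chac1, both Sesn2 probe sets and the 3 dimmer Phgdh probe sets were lower in 3 of 3 repeats under each of these 4 scalings, and the probe sets of Asns and Psat1 were not. Probe sets with every siDNMT1 array below every siNT array numbered 3 under median, trimmed mean and quantile scaling and 0 with no scaling. Over all probe sets the shares under the same scalings were 5.78%, 3.92%, 4.40% and 1.02%. The brightest Phgdh probe set had a positive difference under the 3 other scalings, and the dimmer Trib3 probe set under trimmed mean and quantile scaling.

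Brightness moved with the direction of the differences across the whole array, and its part in the members' values was not tested. Of the 12 member probe sets with a mean deposited signal of 1000 or more, 8 were lower in 3 of 3 repeats, against 38.1% of the 1494 such probe sets on the array. Of the 9 dimmer ones 4 were, against 18.1% of 25528. The median difference of all probe sets with deposited signals of 1000 to 2000, the range of Cth, Chac1, 1 Phgdh probe set, 1 Atf4 probe set and 1 Psat1 probe set, was -0.086. At 200 to 500, the range of the brightest Vldlr, Ddit3 and Sesn2 probe sets, it was -0.081. Cth at -0.44 and Vldlr at -0.71 were below the median of their range, Atf4 at -0.10 and Asns at -0.11 were close to the medians of -0.11 and -0.094 of theirs.

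**Figure D3:**
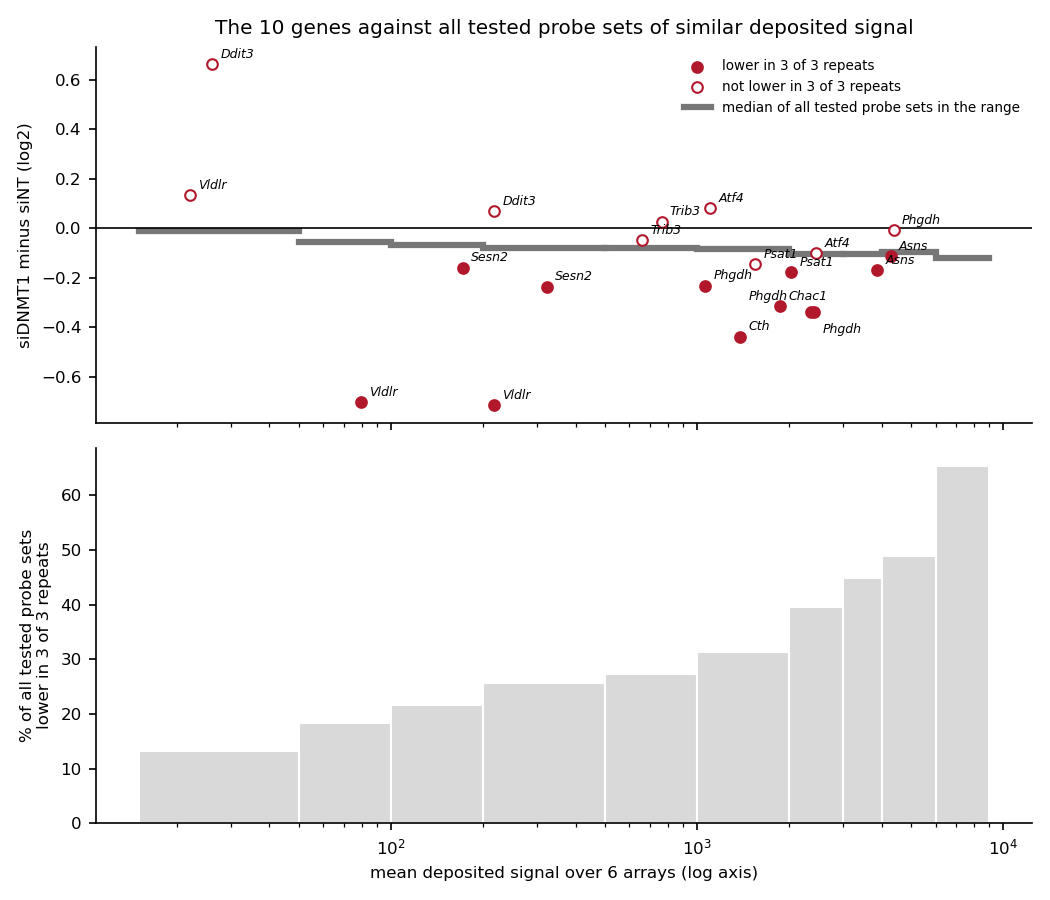
Above, the difference between siDNMT1 and siNT cells (log2 scale) against the mean deposited signal over 6 arrays (log axis) for the 21 tested probe sets of the 10 genes, filled where siDNMT1 was lower in 3 of 3 repeats, with grey bars for the median of all tested probe sets in each range of signal; below, the share of all tested probe sets that were lower in 3 of 3 repeats. The share was 13.2% below a signal of 50 (drawn from 15) and 48.9% at 4000 to 6000, and the 2 brighter Vldlr probe sets and Cth lie furthest below the grey bars.

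Upstream of Atf4, 15 genes were tested, each on its brightest probe set. They were those of the kinases that phosphorylate eIF2, the eIF2 and eIF2B subunits and the phosphatase subunits that reverse the signal, with Gcn1 and Impact. None was called in either direction in either fit. All 15 had lower values in siDNMT1 cells, against 61.0% of 13477 genes, with a median of -0.16 (-0.063 over all genes), and 4 were lower in 3 of 3 repeats (background 20.5%). In repeat 1 alone the median of the 15 was 0.014, and in repeats 2 and 3 it was -0.24 and -0.29. With trimmed mean, quantile and no scaling 13 of the 15 were lower each time, against 50.8%, 51.2% and 56.3% of all genes. Eif2ak3, encoding PERK, the kinase of the endoplasmic reticulum, read 89.0, 69.9 and 96.5 on the siDNMT1 arrays of repeats 1, 2 and 3, against 124, 136 and 146 on the siNT arrays. It differed by -0.65 (SE 0.20), the groups did not overlap (3 of the 15 genes, background 6.31%), and its paired limma adjusted p was 0.360. Eif2ak1, encoding the haem-regulated kinase, differed by -0.38 (SE 0.20), the eIF2B subunit gene Eif2b3 by -0.35 (SE 0.19) and the eIF2 gamma subunit gene Eif2s3x by -0.28 (SE 0.15). Eif2ak4, encoding GCN2, the kinase that senses uncharged tRNA and a gene singled out after its values were seen, was dim, at 16.1 ± 9.16 in siDNMT1 cells and 18.1 ± 1.52 in siNT cells (SD, n = 3 each), and its repeat values of 0.35, -0.018 and -1.06 did not settle a direction.

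The bZIP partners of ATF4 and other regulators of the response went both ways. Of 17 tested genes 5 were higher and 12 lower, with a median of -0.055 and no call in either fit. With trimmed mean or quantile scaling 9 were higher and 8 lower. Of all genes 61.0% were lower with median scaling, and 50.8%, 51.2% and 56.3% with trimmed mean, quantile and no scaling. Atf3, a stress-induced bZIP factor, read 375, 201 and 483 on the siDNMT1 arrays of repeats 1, 2 and 3, against 234, 212 and 337 on the siNT arrays and differed by 0.37 (SE 0.29), higher in repeats 1 and 3. Bbc3, encoding the pro-apoptotic protein PUMA, differed by 0.35 (SE 0.26), with 0.90, 0.52 and -0.37 in the repeats. The stress-induced chromatin protein gene Nupr1 was at -0.35 (SE 0.18) and the hormone gene Fgf21 at -0.27 (SE 0.15), both lower in 3 of 3 repeats. Their repeat 3 differences were small, at -0.028 and -0.039. Of the 10 amino acid transporter genes 3 were higher and 7 lower (median -0.12), again with no call, and under each of the 3 other scalings 6 were lower. The glycine transporter gene Slc6a9 differed by -0.36 (SE 0.18), the glutamine carrier gene Slc1a5 by -0.31 (SE 0.22) and Slc7a5, of the large neutral amino acid carrier, by -0.20 (SE 0.15). In that order they were at -0.0022, 0.034 and 0.11 in repeat 1. In repeat 2 they were at -0.68, -0.71 and -0.56, and in repeat 3 at -0.40, -0.25 and -0.16. Slc7a11, the cystine importer that feeds the same cysteine and glutathione pool as Cth, differed the other way, by 0.33 (SE 0.26), and was at 0.52, 0.52 and -0.061 in the repeats.

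Enzymes of amino acid and one-carbon metabolism other than the members were lower in 10 of 12 tested genes (median -0.13), with no call, and in 7, 7 and 8 of 12 under trimmed mean, quantile and no scaling. The shares over all genes were 61.0% with median scaling and 50.8%, 51.2% and 56.3% with the others in that order. Aldh1l2, a mitochondrial folate enzyme, had signals of 179, 190.2 and 179 on the siDNMT1 arrays of repeats 1, 2 and 3, against 298, 249 and 246 on the siNT arrays. It differed by -0.51 (SE 0.17) with no overlap between groups (1 of the 12 genes, background 6.31%) and a paired limma adjusted p of 0.391. Cbs, which makes the cystathionine that Cth splits, was dim and differed by -0.36 (SE 0.33). The transaminase genes Gpt2 and Got1 differed by -0.19 (SE 0.16) and -0.15 (SE 0.15).

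Aminoacyl-tRNA synthetase genes and the tRNA export gene Xpot had lower values in 14 of 20 tested genes (median -0.11) and in 12, 11 and 14 under trimmed mean, quantile and no scaling, and none was called. Lower values in 3 of 3 repeats were found for 7 (20.5% of all genes), and for 5 under each of the other scalings (14.7%, 14.9% and 17.3%). Wars, for tryptophan, read 411, 377 and 411 on the siDNMT1 arrays of repeats 1, 2 and 3, against 526, 581 and 498 on the siNT arrays, a difference of -0.41 (SE 0.15) with no overlap and a paired limma adjusted p of 0.443. Nars, Hars and Gars, for asparagine, histidine and glycine, differed by -0.28 (SE 0.14), -0.26 (SE 0.16) and -0.20 (SE 0.13). Chaperones and sensors of the other branches of the endoplasmic reticulum stress response were lower in 9 of 13 (median -0.12), with no call, and in 7, 7 and 8 under the other scalings in the same order. For both lists the shares over all genes were 61.0% with median scaling and 50.8%, 51.2% and 56.3% with the others. The sensor gene Atf6 differed by -0.42 (SE 0.21) and the chaperone gene Hspa5 by -0.29 (SE 0.18), with -0.85 in repeat 3 and -0.023 and -0.00079 in repeats 1 and 2. The dim Pdia4 was at -0.42 (SE 0.33) and Sdf2l1 at -0.16 (SE 0.19). At an unadjusted limma p under 0.05, the numbers of lower genes in the eIF2, bZIP, transporter, enzyme, synthetase and endoplasmic reticulum lists were 1, 0, 0, 1, 1 and 0 without the block and 3, 2, 1, 1, 3 and 2 in the paired fit (background 2.57% and 6.20% of 13477 genes). No gene of these lists was higher at that level without the block, and 1, Atf3 of the bZIP list, was in the paired fit. Genes with every siDNMT1 array below every siNT array numbered 3, 1, 1, 1, 4 and 0 in the same lists (background 6.31%). Besides Eif2ak3, Aldh1l2 and Wars they included Eif2b3, Eif2s3x, Nupr1, Slc6a9, Nars and Gars. With no scaling there were 0 in each list (background 0.899%).

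**Figure D4:**
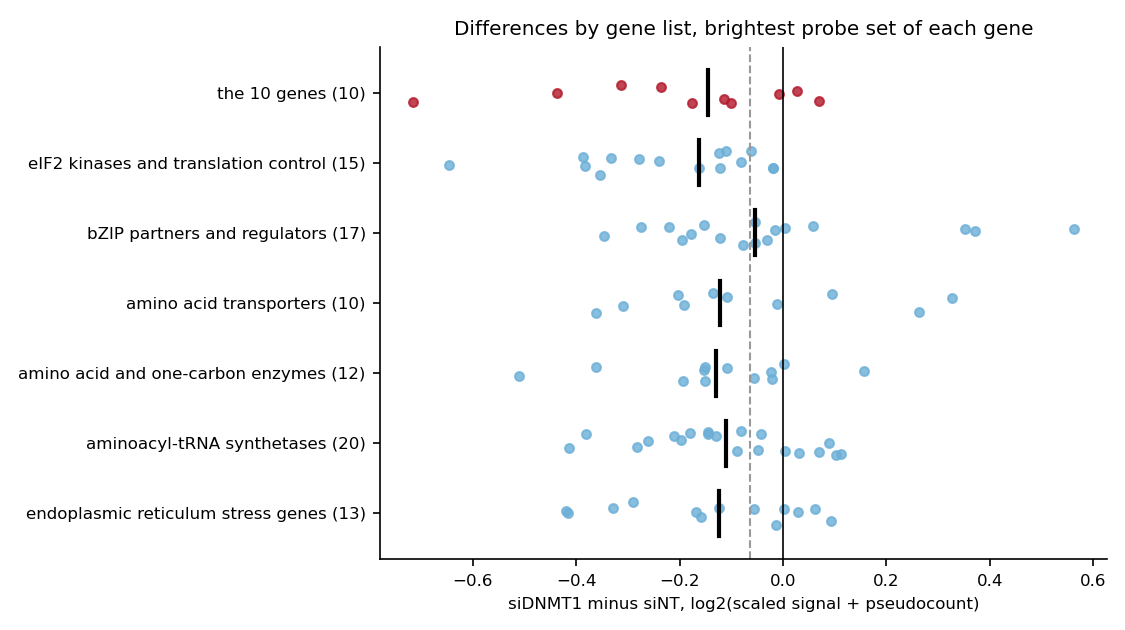
Difference between siDNMT1 and siNT cells (horizontal axis, log2 scale) for the tested genes of each list, 1 point per gene on its brightest probe set, with the number of genes in brackets, a black bar at the list's median and a dashed line at the median of all genes, -0.063; vertical scatter within a list has no meaning. All 15 points of the eIF2 list lie below 0, the bZIP list spans 0 widely, and Vldlr is the lowest point of the 10 genes.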

How the data were processed

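The deposited table holds 1 probe set intensity per array on a linear scale, made by the authors with GCOS, the Affymetrix operating software, per the submitters' processing notes. The version and settings of GCOS are not given in the sources for this series. Arrays were multiplied by a factor that equalised their medians, since their 2% trimmed means differed by over 10%, and 64 control probe sets were left out. The trimmed means still ran from 89.3 to 106.4 after scaling. In repeat 2 they were 140.1 on the siDNMT1 array and 140.2 on the siNT array before scaling. After it they were 97.3 and 106.4. The pseudocount of 5.29 is the 20th percentile of all deposited intensities, and it understates differences of dim probe sets. Probe sets with a mean scaled signal of at least 16.8, the 40th percentile, were tested (27022). Symbols came from the platform annotation, checked against RefSeq genes of GRCm38.p6, which altered 0. For lists, the brightest probe set stood for a gene.

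Differences were tested two-sided with limma 3.58.1 under R 4.3.3, by lmFit and eBayes with an intensity trend, and p-values were adjusted by Benjamini-Hochberg over all tested probe sets. The alternative with the repeat as a block is the paired fit. Whether repeat numbers pair the arrays was checked on deviations from group means. The siDNMT1 and siNT arrays of 1 number had correlations of 0.173, 0.231 and 0.257 over probe sets, so they were taken as pairs. Those of unlike number had -0.179 to -0.0283. Deviations from a group mean sum to 0, so these lean negative when the others are positive and are no separate evidence of pairing. On simulated data of 27022 probe sets without a repeat effect, the unpaired fit recovered 24.0% of probe sets changed by a log2 of 1 and 74.2% of those changed by 2, and the paired fit 14.8% and 69.3%.

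The genes described are all 10 members with every probe set, Dnmt1, and for each other list any gene past the threshold and the up to 4 with the smallest unadjusted p. The members, lists and rules were chosen with earlier results of these data known. The 6 other lists hold 92 genes, of which 87 were tested. With 3 arrays a group, the precision of each value is limited by that number.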

Additional observations from a re-analysis of the deposited data

How the results depend on the processing

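Under 19 alternatives no probe set of the 10 genes was called, and the median of the tested ones stayed between -0.22 and -0.062. The median of all tested probe sets ran from -0.10 to 0.0019. At the ends of the members' range it was -0.096, in the paired fit without repeat 1, and -0.064, without siDNMT1 array 2. Over all probe sets the count of calls, 0 without the block, was 23 with the replicate block, 1 with trimmed mean scaling, 1 with quantile normalisation, 2 with no scaling, 1 with the stricter filter, 1 with probe sets averaged by gene, and 0 to 4 with 1 array left out. In the paired fit without repeat 1, 2 or 3 it was 41, 34 and 266. Dnmt1 passed with the replicate block at -1.54, in the paired fit without repeat 1, 2 or 3 at -1.65, -1.17 and -1.79, and without siDNMT1 array 3, in a range of -1.79 to -1.26 with 1 array left out. Signs turned for 4 genes near 0, and the cause was not tested. With 1 array left out, Atf4 ran from -0.21 to 0.038, Trib3 from -0.10 to 0.12, Phgdh from -0.18 to 0.21 and Ddit3 from -0.042 to 0.20. In the paired fit Trib3 was at -0.11 without repeat 1, and Phgdh at 0.12 and Ddit3 at -0.0094 without repeat 2. Trib3 was at -0.011 with probe sets averaged. Phgdh was at 0.053 with trimmed mean scaling, 0.070 with quantile normalisation and 0.021 with no scaling. With 1 array left out, the median of the one-carbon enzyme list ran from -0.17 to -0.012 and that of the endoplasmic reticulum list from -0.21 to 0.070, highest without siDNMT1 array 3 in both. The transporter median ran from -0.18 to 0.023, positive without siNT array 2, the eIF2 median from -0.29 to -0.15, lowest without siDNMT1 array 1, the bZIP median from -0.13 to -0.0028, highest without siDNMT1 array 1 and lowest without siNT array 1, and the synthetase median from -0.18 to -0.046, highest without siDNMT1 array 3 and lowest without siDNMT1 array 2. The replicate block changed no call of a listed gene other than Dnmt1. Vldlr ran from -0.90 to -0.43 and Cth from -0.55 to -0.36 over all alternatives. Signal over background limits the 4 untested probe sets, whose mean signals were below the filter.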
